A study of Mus musculus with 16 samples.

Results

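The genes described here encode ephrins and their Eph receptors, Slits and their Robo receptors, and netrins with their receptors of the Dcc, neogenin and Unc5 families. They were taken from the deposited count table by gene symbol alone, which gave 41 of 24539 genes: 5 ephrin-A and 3 ephrin-B genes, 9 EphA and 5 EphB receptor genes, 3 Slit and 4 Robo genes, 4 netrin and 2 netrin-G genes, Dcc and Neo1, and 4 Unc5 genes. Each of the 41 had 1 protein-coding entry in the mouse annotation. The measurements come from 16 libraries of laser-captured cells of the embryonic mouse cortex, in 4 exposure groups of 4, with 1 embryo per litter, so that each replicate is a separate litter. All dams were of the CD1 strain, and all embryos were labelled male, aged embryonic day 14.5 and heterozygous for a GAD67-GFP reporter, which labels cells that express the GABA-synthesising enzyme gene Gad1. Dams of the vehicle group received corn oil and no restraint, those of the cypermethrin group received 10 mg/kg of alpha-cypermethrin (a pyrethroid insecticide) by gavage on gestational days 11 to 14, those of the stress group received corn oil and were restrained under bright light for 45 min at a time in 3 sessions on days 12 and 13, with a last round on day 14, and those of the group with both exposures received the insecticide and the restraint. From each embryo about 1000 GFP-positive cells were cut out of 10 sections of the cortical plate, so a library averages over many cells and can hold RNA of their neighbours.

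Axons and migrating neurons are steered by these ligands through contact or over a distance. Ephrin-A proteins are held in the membrane by a lipid anchor and bind mainly EphA receptors, ephrin-B proteins span the membrane and bind mainly EphB receptors, and contact between cells bearing ligand and receptor usually repels. Slits are secreted and repel cells that carry Robo receptors, while netrin-1 attracts through Dcc and repels where Unc5 receptors take part. All of these systems have been studied in the tangential migration of cortical interneurons, which enter the cortex from the ventral forebrain.

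Replicate numbers are not in the labels and were given here in sample order within each group. Total counts per library ran from 2291283 to 4324129. The label went against the sex-linked genes in the library labelled stress replicate 1, which had 9521 counts of Xist against at most 26 in the other 15, and 1 count over 4 Y-linked genes against at least 555. It was kept in its group, and values without it are given beside several, not all, of the results in which it was extreme. The descriptions also hold a code, unexplained in the labels, that was one number for 7 libraries and another for 9, here the first and the second code. Summed over the 12 interneuron markers listed, libraries had 1471 to 2367 CPM, the count relative to the scaled library size. The same sum was 4479 to 7486 CPM over 10 markers of glutamatergic neurons, 1511 to 1976 CPM over 11 markers of radial glia, 1423 to 4203 CPM over 13 markers of pericytes and meningeal fibroblasts and 150 to 674 CPM over 12 endothelial markers. Of the radial glia markers, Hes5 and Aldh1l1 had means under 1 CPM. In such material, fewer cells of a type and less RNA per cell cannot be told apart.

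Among netrin receptors, Dcc and Neo1 had the most transcripts. Dcc, the receptor for attraction to netrin-1, had the highest level of the 41 genes, with 1009 ± 189 CPM (SD, n = 16), and ran from 733 to 1436 CPM over the libraries. Neo1 encodes neogenin, a relative of Dcc that binds netrins and repulsive guidance molecules, and had 492 ± 111 CPM. Genes are compared here per kilobase of annotated exon. This length joins the exons of all annotated transcripts of a gene, so it can exceed that of the transcripts present, and the comparison is rough. On that scale Dcc had 76.6 and Neo1 56.5 CPM, with SDs of 14.3 and 12.7. These were the highest levels of the 41 on that scale too. The Unc5 receptors followed at a distance, with 45.9 ± 14.6 CPM for Unc5c, 27.2 ± 9.73 for Unc5a, 26.6 ± 6.51 for Unc5b and 15.5 ± 17.1 for Unc5d, or 1.68 to 6.53 CPM per kilobase.

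Ntn1, which encodes the diffusible ligand of Dcc, had 2.93 ± 3.06 CPM (SD, n = 16), or 0.466 CPM per kilobase, and no count in 2 of the 16 libraries. Ntn3, another ligand of Dcc, had 13.6 ± 6.54 CPM, but its annotated exons overlap those of Tbc1d24, so its counts are uncertain. Ntn4, a netrin of basement membranes, had 10.5 ± 9.75 CPM, and Ntn5 was counted in 3 libraries. Ntn3, Ntn4 and Ntn5 had 2.66, 2.81 and 0.101 CPM per kilobase. The netrin-G genes encode membrane-anchored relatives that bind synaptic adhesion proteins rather than Dcc. Ntng2 was the higher, with 40.1 ± 15.4 CPM against 6.68 ± 5.62 for Ntng1, or 10.0 against 0.810 CPM per kilobase.

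Robo1 and Robo2, the neuronal Slit receptors, were both abundant. Robo1 had 596 ± 86.6 CPM and 36.1 CPM per kilobase, and it was the steadiest of the tested members, with a coefficient of variation of 14.5%. Robo2 had 179 ± 38.3 CPM and 10.5 CPM per kilobase. Robo4, a receptor known from endothelial cells, had 17.3 ± 10.2 CPM, while Robo3, known from commissural neurons, had 0.307 ± 0.485 CPM and a count in 7 of 16 libraries. Of the ligands, Slit1 had 105 ± 36.5 CPM, and Slit2 and Slit3 had 23.2 ± 16.9 and 23.2 ± 12.1 CPM. Per kilobase Slit1 had 17.7, Slit3 3.82 and Slit2 0.911 CPM. The difference between Slit2 and Slit3 on that scale comes from the lengths used, 25.4 and 6.07 kb of annotated exon.

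Among Eph receptors, Epha5 had 614 ± 102 CPM (SD, n = 16), or 36.7 CPM per kilobase, and stood above every other gene of its class. Epha7, Epha4 and Epha3 had 135 ± 29.4, 128 ± 36.9 and 105 ± 39.6 CPM, and their 12.1 to 15.9 CPM per kilobase lay within 1 SD of each other. Epha4 is known for binding ephrins of both classes. Epha6 had 3.33 ± 3.78 CPM with no count in 4 libraries. Ephb2 had the highest level of the EphB class, with 158 ± 59.9 CPM, followed by Ephb1 with 54.3 ± 31.4, Ephb6, whose product lacks kinase activity, with 20.3 ± 11.4, Ephb4, known from veins, with 12.2 ± 9.90 and Ephb3 with 3.79 ± 3.18 CPM. Per kilobase Ephb2 had 12.5, Ephb1 7.76, Ephb6 5.38, Ephb4 2.64 and Ephb3 0.571 CPM.

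Of the ephrins, Efnb2, a transmembrane ligand of neurons and arteries, was the highest with 255 ± 64.2 CPM. Its 37.2 CPM per kilobase lay within 1 SD of those of Epha5 and Robo1. Efnb3 and Efnb1 had 51.3 ± 15.5 and 20.2 ± 9.30 CPM, or 16.1 and 5.85 CPM per kilobase. Efnb1 lies on the X chromosome, and the library whose sex-linked genes went against its label had 23.8 CPM, within the 17.2 to 33.2 CPM of the rest of its group. The ephrin-A genes ran from Efna5 with 29.0 ± 11.2, Efna2 with 19.9 ± 11.5 and Efna3 with 18.6 ± 19.1 to Efna4 with 7.17 ± 4.04 and Efna1 with 2.67 ± 2.24 CPM. Per kilobase they ran from 1.46 CPM for Efna1 to 9.36 CPM for Efna2. Efna1, Efna3 and Efna4 lie close together on chromosome 3.

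**Figure D1:**
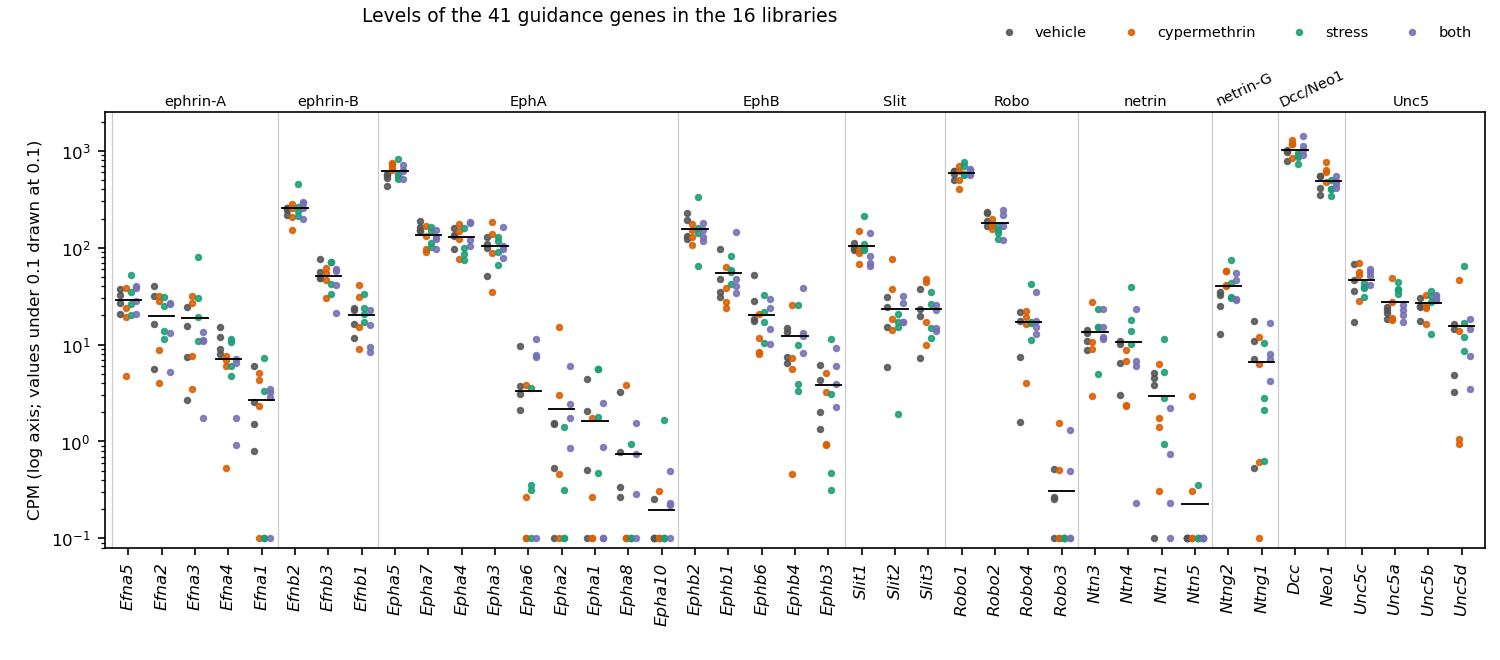
Level of each of the 41 genes in each of the 16 libraries, in CPM on a log axis and grouped by role; points are libraries coloured by exposure group and bars are means over the libraries, with values under 0.1 CPM drawn at 0.1. Dcc, Epha5, Robo1 and Neo1 stand at the top with means of 492 to 1009 CPM, while Ntn1 has a mean of 2.93 CPM.

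The filter on low counts was passed by 35 of the 41 genes, out of 13224 genes in all, and these are the tested members. Epha1, Epha2, Epha8, Epha10, Robo3 and Ntn5 did not pass, with means of 0.198 to 2.19 CPM. A library without a count of a gene allows a level of up to 0.662 to 1.43 CPM, depending on its depth (3 counts, counting error only). Variation between libraries was smaller in genes with higher levels, among the members and over all genes. The 11 tested members above 100 CPM had a median coefficient of variation of 22.6%, against 23.2% over all 2319 such genes, and the 18 members between 10 and 100 CPM had 54.1% against 47.1%. For 8 of the tested members the highest value was in the library labelled stress replicate 1, which is 22.9% of them, against 15.7% of all genes tested. They were Robo1, Slit1, Ntng2, Ntn4, Efna3, Ephb2, Unc5d and Robo4.

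Cypermethrin without stress was set against vehicle to ask what the insecticide did alone. No guidance gene passed the threshold, a Benjamini-Hochberg adjusted p under 0.05 in edgeR's quasi-likelihood test, and neither did any other gene (0% of 13224 called). At an unadjusted p under 0.05 there were 4 of 35 members by edgeR, against 3.71% of all genes tested. DESeq2, which kept all 41 members, had 4 and limma voom had 3. Over all genes DESeq2 had more at that p than edgeR and limma voom fewer, so the edgeR share is not the background of their counts. Those of edgeR were Epha5, Neo1, Ephb6 and Ntng2, the last named because it completes the 4. Fitted values were higher in 16 of 35 members and in 52.4% of all genes, with median log2 differences of -0.02 and 0.03.

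Epha5, the most abundant Eph receptor gene, lies on chromosome 5 from 84054761 to 84417382 of mm10. It had 634, 688, 729 and 746 CPM in the 4 cypermethrin libraries and 528, 437, 561 and 574 CPM in the vehicle libraries. The groups did not overlap. On the log2 scale Epha5 differed by 0.41 ± 0.16 (SE, n = 4 per group, adjusted p = 0.999). Such a separation was seen in 3 members (Epha5, Ntng2 and Efna4) of 35, and in 2.52% of all genes.

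Neo1, on chromosome 9 from 58874687 to 59036441, had 633, 599, 471 and 764 CPM with cypermethrin and 545, 352, 547 and 415 CPM with vehicle. Of the 4 exposed libraries, 3 lay above every vehicle library. Neo1 had a log2 difference of 0.41 ± 0.18 (SE, adjusted p = 0.999). Ephb6, the kinase-inactive receptor gene, had 20.7, 11.7, 7.97 and 8.41 CPM with cypermethrin and 51.9, 28.3, 17.4 and 18.5 CPM with vehicle. The groups overlapped in 1 exposed library. Its log2 difference of -1.24 ± 0.56 (SE, adjusted p = 0.999) was -0.80 without vehicle replicate 1, which had the highest value. Over the 5 EphB genes the median log2 difference with cypermethrin alone was -0.42, none past the threshold. Medians of the other classes ran from -0.44 for netrins to 0.43 for Slits, so the EphB class did not stand apart. Ntng2 had 40.6, 41.3, 57.9 and 57.9 CPM with cypermethrin, each above the 12.8, 24.96, 32.6 and 35.01 CPM of the vehicle group. Its counts are uncertain, since its exons overlap those of 6530402F18Rik on the same strand.

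Signalling partners of these receptors, listed by pathway, did not pass either. None of 28 ephrin, 26 Slit-Robo and 29 netrin pathway genes was called by edgeR, and 1, 0 and 2 had an unadjusted p under 0.05. The smallest p in each list belonged to Sdcbp, which encodes the adaptor syntenin that binds ephrin-B tails (0.49 ± 0.24), Rac1, a small GTPase of the cytoskeleton (0.34 ± 0.19), and Bcar1, an adaptor downstream of focal adhesion kinase (1.02 ± 0.44, log2 differences ± SE). Markers of other cell types stood to one side in this comparison, none past the threshold: 11 of 13 pericyte and meningeal markers and 9 of 10 glutamatergic markers had higher fitted values with cypermethrin, with medians of 0.22 and 0.26. Their part in the differences above was not tested.

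Restraint stress alone was compared with vehicle to ask what stress did without the insecticide. Again no member passed (0% of 13224 genes called). By edgeR 1 of 35 members, Robo2, had an unadjusted p under 0.05, against 5.08% of all genes. DESeq2 had 4 members, with more genes in all at that p than edgeR, and limma voom 0, with fewer. Fitted values were higher in 20 of 35 members and in 50.8% of all genes, with medians of 0.05 and 0.01. Robo2, on chromosome 16 from 73891839 to 74411825, had 143, 151, 122 and 166 CPM in the stress libraries and 235, 229, 167 and 191 CPM in the vehicle libraries. The groups did not overlap, by less than 1 CPM. For Robo2 the fitted value was -0.50 ± 0.22 on the log2 scale (SE, n = 4 per group, adjusted p = 0.965).

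Unc5a, a netrin receptor gene on chromosome 13 from 54949411 to 55006018, had 43.8, 33.2, 37.4 and 36.8 CPM with stress and 21.2, 24.6, 22.7 and 18.3 CPM with vehicle. Every stress library lay above every vehicle library. Unc5a had a log2 difference of 0.80 ± 0.43 (SE, adjusted p = 0.965), and 0.72 without the library labelled stress replicate 1. An exon of Hk3 on the other strand overlaps Unc5a, and since strand use in counting is not given in the sources used here, its counts are uncertain. Groups that did not overlap were found for 2 members, Unc5a and Robo2, and for 2.90% of all genes.

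Efna3 encodes an ephrin-A ligand, and had 80.4, 30.4, 19.2 and 10.8 CPM with stress against 7.41, 2.67, 15.6 and 24.7 CPM with vehicle. The highest value belonged to the library labelled stress replicate 1. The log2 difference of 1.47 ± 0.76 (SE, adjusted p = 0.965) was 0.67 without that library, and within the library codes it was 3.45 in the first and -0.43 in the second. Among pathway partners 0 were called, and Pick1, whose product binds ephrin-B and Eph receptor tails (-1.27 ± 0.49), Pak1, a kinase downstream of Rac and Cdc42 (0.56 ± 0.24), and Lrrc4c, which encodes the partner of netrin-G1 (-1.30 ± 0.41), had the smallest p of their lists. Unadjusted p-values under 0.05 were found for 2 of 28 ephrin, 3 of 26 Slit-Robo and 2 of 29 netrin pathway genes. Of the pericyte and meningeal markers 11 of 13 had lower fitted values with stress, with a median of -0.45, and their part in these differences was not tested.

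Both exposures together were compared with vehicle. No member passed (0% of 13224 genes called), and 0 of 35 had an unadjusted p under 0.05 by edgeR, against 1.49% of all genes. DESeq2 had 0 members and 378 genes in all, and limma voom 1 member and 248 genes. Fitted values were higher in 21 of 35 members and in 50.3% of all genes, with medians of 0.09 and 0.003. Efna4, the ephrin-A gene with the smallest p, had 1.73, 0.923, 7.07 and 6.48 CPM with both exposures and 8.08, 9.08, 15.1 and 12.1 CPM with vehicle. The groups did not overlap, which held for 1 member, Efna4, and for 2.62% of all genes. The log2 difference was -1.44 ± 0.88 (SE, n = 4 per group, adjusted p = 1). In the cypermethrin group its 0.531 to 7.71 CPM also lay below every vehicle library, a comparison that uses the same vehicle libraries.

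Dcc had 1436, 895, 1019 and 1129 CPM with both exposures and 785, 1008, 986 and 968 CPM with vehicle. Of the 4 exposed libraries, 3 lay above the vehicle group. The log2 difference was 0.26 ± 0.16 (SE, adjusted p = 1), and 0.11 without replicate 1 of the exposed group. Epha7, an EphA receptor gene, had 97.9, 122, 153 and 128 CPM against 165, 149, 188 and 151 CPM, with a log2 difference of -0.38 ± 0.24 (SE, adjusted p = 1). Pathway partners had 0 calls, and 0 of 28 ephrin, 1 of 26 Slit-Robo and 0 of 29 netrin pathway genes had an unadjusted p under 0.05. The smallest p of the Slit-Robo and netrin lists belonged to Pak1 (0.53 ± 0.24) and Pitpna, a phosphatidylinositol transfer protein that binds Dcc (-0.48 ± 0.24, log2 differences ± SE).

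**Figure D2:**
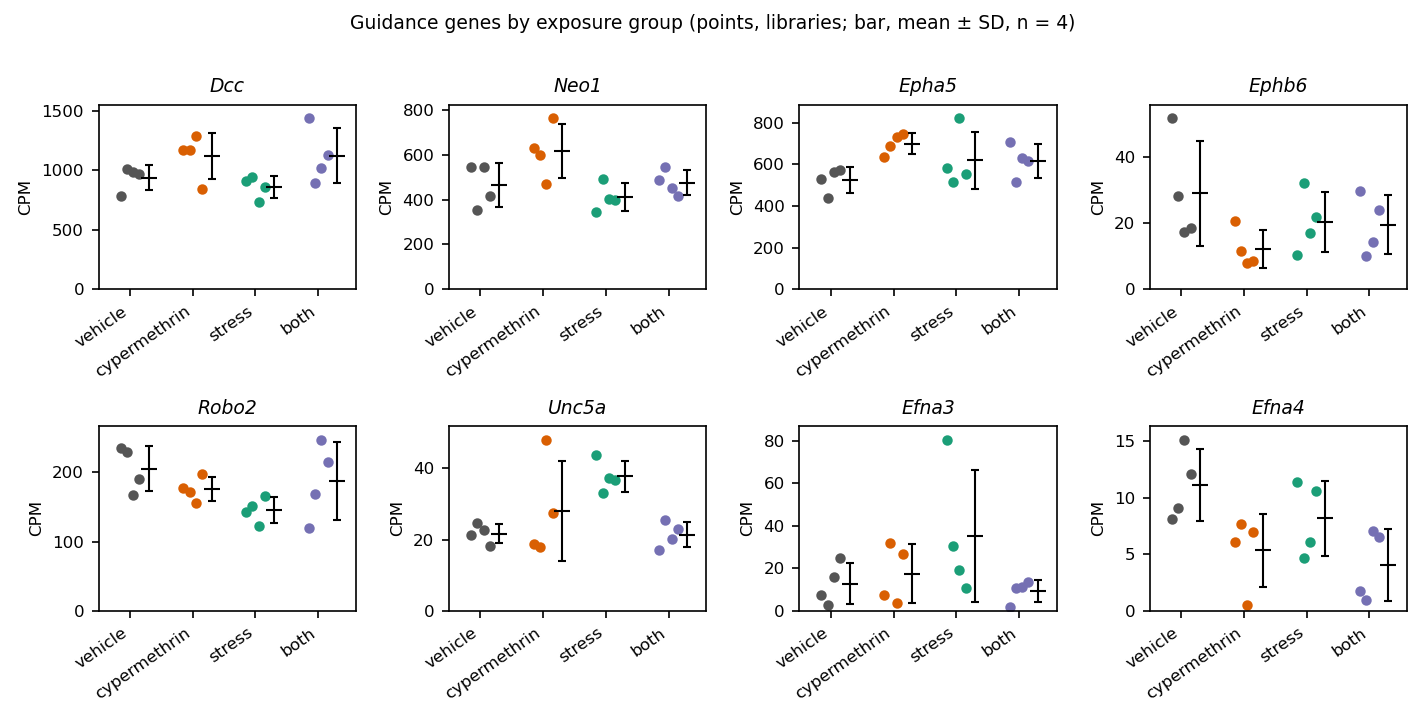
Levels in CPM of Dcc, Neo1, Epha5, Ephb6, Robo2, Unc5a, Efna3 and Efna4 in the 4 exposure groups; points are libraries, horizontal marks are means and bars are SDs (n = 4). Epha5 is higher in all 4 cypermethrin libraries than in the vehicle libraries, and Unc5a is at 33.2 to 43.8 CPM with stress alone against 17.1 to 25.4 CPM with both exposures.

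Averaged over stress, the netrin receptor genes Dcc and Neo1 had the smallest p of the members for cypermethrin, both fitted higher with it, and neither passed the threshold. No gene was called by edgeR (0% of 13224), and DESeq2 called 2 genes, none of them a member. Dcc and Neo1 were the 2 of 35 members with an unadjusted p under 0.05 by edgeR, against 4.59% of all genes. DESeq2 and limma voom had 3 members each, DESeq2 with more genes in all at that p than edgeR and limma voom with fewer. Fitted values were higher in 17 of 35 members and in 51.1% of all genes, with medians of -0.02 and 0.009. The 5 ephrin-A and 3 ephrin-B genes had medians of -0.28 and -0.19, and none of them passed. Medians of the other classes ran from -0.87 for netrins to 0.31 for Dcc and Neo1.

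Dcc ranged from 845 to 1436 CPM with a median of 1147 CPM in the 8 libraries with cypermethrin, and from 733 to 1008 CPM with a median of 927 CPM in the 8 without. Of the 8 exposed libraries, 6 lay above every unexposed one. The log2 difference was 0.32 ± 0.11 (SE, adjusted p = 0.981), with 0.36 and 0.30 within the library codes and 0.25 without replicate 1 of the group with both exposures. Neo1 ranged from 417 to 764 CPM with a median of 518 CPM in exposed libraries, all 8 of them above the median of 410 CPM of the unexposed, which ran from 345 to 547 CPM. Its log2 difference was 0.31 ± 0.13 (SE, adjusted p = 0.981). Slit2 had a log2 difference of 0.84 ± 0.44 (SE, adjusted p = 0.981), from 1.90 to 30.8 CPM without and 14.2 to 76.6 CPM with cypermethrin, and 0.52 without cypermethrin replicate 4, its highest library. Within the library codes it was 1.29 and 0.24.

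Genes of the netrin pathway had 3 of 29 at an unadjusted p under 0.05, led by Bcar1 (0.89 ± 0.31). The ephrin and Slit-Robo pathway lists had 1 of 28 and 2 of 26, led by Git1, an adaptor recruited by ephrin-B (-0.62 ± 0.22), and Nell2, a ligand of Robo3 (-0.49 ± 0.20, log2 differences ± SE), with 0 calls in any list. Pericyte and meningeal markers were fitted higher with cypermethrin in 11 of 13 and endothelial markers in 9 of 12, with medians of 0.34 and 0.38. Against the pericyte and meningeal score, the slopes of Dcc and Neo1 were 0.04 ± 0.12 and -0.11 ± 0.14, and against the endothelial score 0.14 ± 0.09 and -0.07 ± 0.10 (log2 per unit of score ± SE), all with adjusted p of at least 0.384. At an unadjusted p under 0.05, Dcc had a slope of -0.48 ± 0.17 on the interneuron score and Neo1 one of -0.69 ± 0.32 on the radial glia score (adjusted p = 0.253 and 0.476). The part of other cell types in the cypermethrin differences was not tested.

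Averaged over cypermethrin, stress had no member past the threshold (0% of 13224 genes called). Neo1 was the 1 member of 35 with an unadjusted p under 0.05 by edgeR, against 5.13% of all genes. DESeq2 had 1 member, with more genes in all at that p than edgeR, and limma voom 0, with fewer. Fitted values were higher in 20 of 35 members and in 50.0% of all genes, with medians of 0.04 and -0.001. Neo1 ran from 345 to 548 CPM with a median of 435 CPM in the 8 stressed libraries and from 352 to 764 CPM with a median of 546 CPM in the 8 others. Of the 8 stressed libraries, 1 lay above the median of the others. The log2 difference was -0.28 ± 0.13 (SE, adjusted p = 0.960). Without the library labelled stress replicate 1, which had the lowest level, it was -0.24 and 0 members had an unadjusted p under 0.05.

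Ntn4, the netrin of basement membranes, ran from 0.231 to 39.5 CPM with stress and from 2.34 to 10.9 CPM without. Its log2 difference of 1.11 ± 0.61 (SE, adjusted p = 0.960) was 0.59 without replicate 1 of the group with both exposures and 0.84 without the library labelled stress replicate 1, its highest. Ephb1 had 33.9 to 146 CPM with stress and 23.7 to 97.3 CPM without, with a log2 difference of 0.49 ± 0.32 (SE, adjusted p = 0.960). That difference was 0.13 without replicate 1 of the group with both exposures, which had the highest Ephb1 value. Over the 5 EphB genes the median was 0.45, none past the threshold, and the other classes had medians from -0.32 for Slits to 0.32 for netrins. Of pathway partners 1 of 28, 2 of 26 and 2 of 29 had an unadjusted p under 0.05, led by Pick1 (-0.79 ± 0.34), Pak1 (0.50 ± 0.17) and the Dcc-binding ubiquitin ligase gene Trim67 (0.43 ± 0.15), with 0 calls. Pericyte and meningeal markers were fitted lower in 10 of 13, with a median of -0.28.

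**Figure D3:**
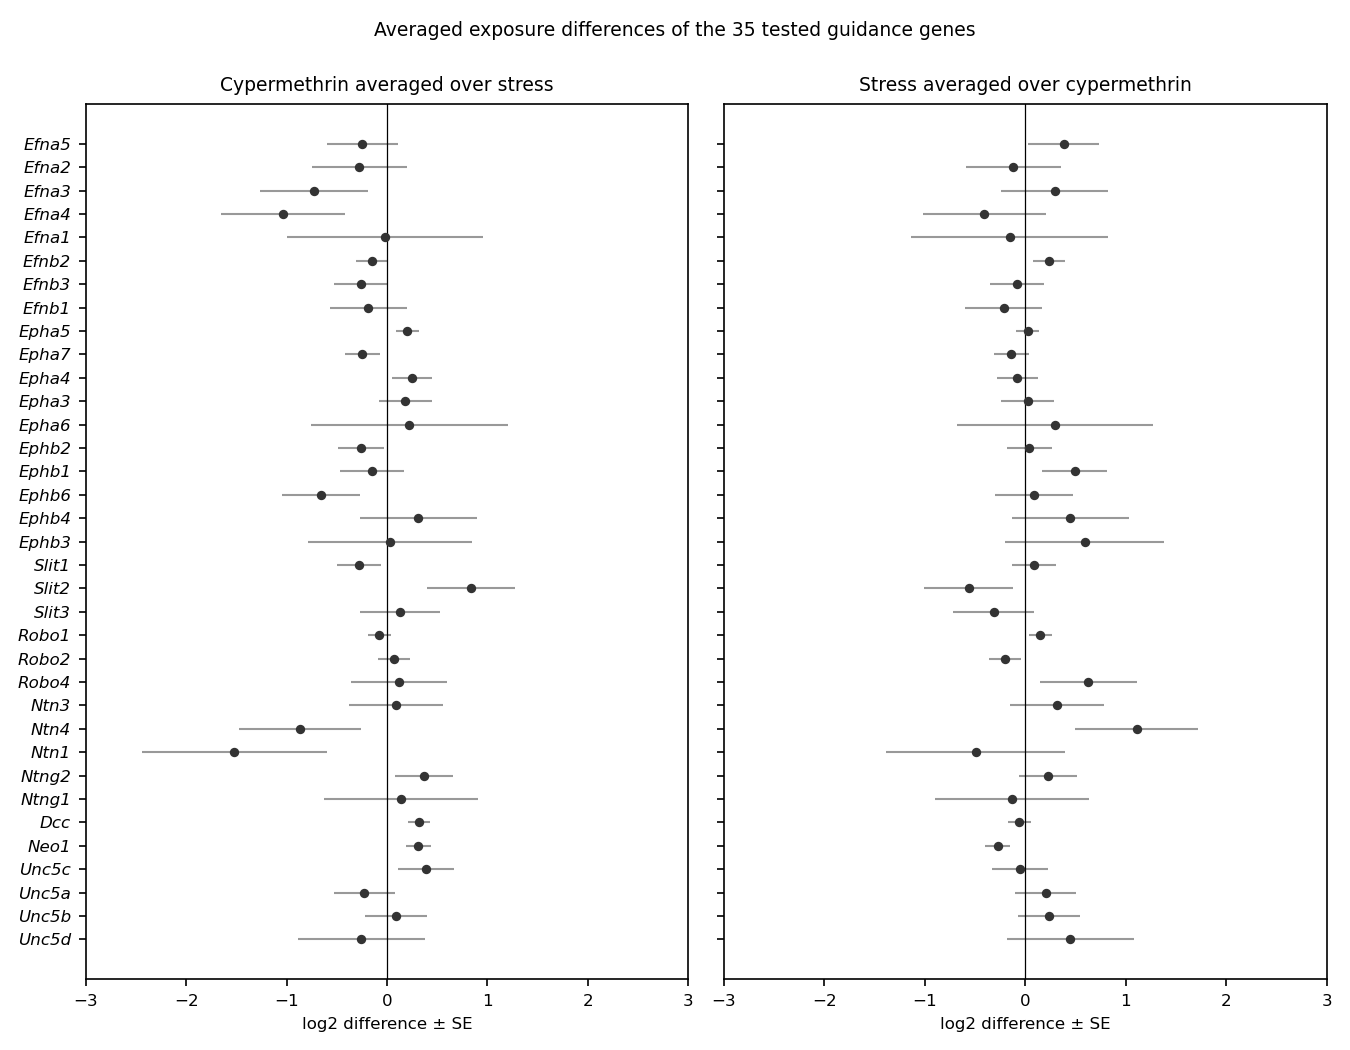
Log2 differences ± SE of the 35 tested members for cypermethrin averaged over stress (left) and stress averaged over cypermethrin (right), in order of role and level. Abundant genes such as Dcc (0.32 ± 0.11) and Neo1 (0.31 ± 0.13) have short bars, while those of Ntn1 and Epha6 are wide, and no member passed the threshold on either side.

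The interaction asked whether the difference with cypermethrin changed under stress. No member passed (0% of 13224 genes called). By edgeR 2 of 35, Epha6 and Efna3, had an unadjusted p under 0.05, against 4.70% of all genes. DESeq2 had 4 members and 959 genes in all, and limma voom 1 member and 471 genes. Values were positive in 15 of 35 members and in 47.4% of all genes, with medians of -0.02 and -0.04. Epha6, an EphA receptor gene near the limit of detection, had 3.70, 2.14, 9.59 and 3.09 CPM with vehicle, 3.78, 0, 0.266 and 0 with cypermethrin, 0, 0.313, 0.356 and 3.54 with stress, and 0, 7.38, 7.73 and 11.5 with both. Each single exposure had 1 library above 1 CPM, and both exposures together had 3. The log2 interaction was 4.64 ± 2.01 (SE, n = 4 per group, adjusted p = 0.985), and 7.62 without cypermethrin replicate 1.

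Efna3 had group means of 12.6 ± 9.69 and 17.4 ± 13.9 CPM (SD) with vehicle and cypermethrin, and 35.2 ± 31.2 and 9.32 ± 5.19 CPM with stress and both exposures. The log2 interaction was -2.35 ± 1.076 (SE, adjusted p = 0.985), and -1.56 without the library labelled stress replicate 1. Within the first and second library codes it was -3.72 and -0.31. Unc5a had 21.7 ± 2.66, 28.1 ± 14.1, 37.8 ± 4.39 and 21.4 ± 3.595 CPM in the same order, with an interaction of -1.19 ± 0.61 (SE, adjusted p = 0.985) that was -0.81 without cypermethrin replicate 3. Among pathway partners 3 of 28, 1 of 26 and 1 of 29 had an unadjusted p under 0.05, led by Vav2, an exchange factor recruited by Eph receptors (1.41 ± 0.52), Sos1, an exchange factor recruited by Robo (-0.69 ± 0.28), and Lrrc4c (1.49 ± 0.58), with 0 calls. Of the markers, 11 of 13 for pericytes and meningeal fibroblasts had positive and 8 of 10 for glutamatergic neurons negative interactions, with medians of 0.17 and -0.30, none past the threshold. Their part in the values above was not tested.

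The libraries also differed in the RNA of neighbouring cell types, and the members were compared with those differences within the exposure groups. For each of 6 cell types a score was made from its markers, as the mean of their log2 CPM centred over libraries, and the slope of every gene on the score was tested in edgeR beside the group means. Ephb4, the receptor gene of venous endothelium, followed the endothelial score and was the 1 member of 35 called in any of the 6 fits. Its slope was 1.77 ± 0.43 (log2 per unit of score ± SE, n = 16, adjusted p = 0.0209). This 1 call was 2.86% of the members, near the 3.25% of all 13224 genes that were called. At an unadjusted p under 0.05 there were 5 of 35 members, against 19.4% of all genes. Ephb4 had 0.467 CPM in cypermethrin replicate 4 and 3.33 CPM in the library labelled stress replicate 1, whose scores of -1.38 and -1.50 were the lowest, and 25.5 CPM in cypermethrin replicate 3, whose score of 1.16 was the highest. Its highest value, 38.1 CPM, was in replicate 2 of the group with both exposures, at a score of 0.40. The call rested on single libraries: the slope was 1.63, 1.69 and 1.56 without stress replicate 2, cypermethrin replicate 3 and cypermethrin replicate 4, with adjusted p of 0.0621, 0.0749 and 0.0908, and 2.26 without the library labelled stress replicate 1. Exons of Zan, on the other strand, overlap Ephb4.

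Other members known from vessels did not pass. Robo4, the endothelial Robo gene, had a slope of -0.76 ± 0.39 (SE, adjusted p = 0.273) on the endothelial score, with 42.3 CPM in the library labelled stress replicate 1 and 3.99 CPM in cypermethrin replicate 3, the ends of the score. Without the former library it was -0.64. Slopes were -0.02 ± 0.15 for the arterial ligand gene Efnb2 (adjusted p = 0.950), 0.36 ± 0.24 for Unc5b (0.426) and 0.67 ± 1.16 for Efna1 (0.804). The slope of Slit1 was -0.49 ± 0.14 (SE, adjusted p = 0.0581), and it was called without group means (-0.52) and without replicate 1 of the group with both exposures (-0.48, adjusted p = 0.0300). Slit1 had 211 CPM in the library labelled stress replicate 1 and 68.0 CPM in cypermethrin replicate 3. Its slope without the former library was -0.40 (adjusted p = 0.202).

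**Figure D4:**
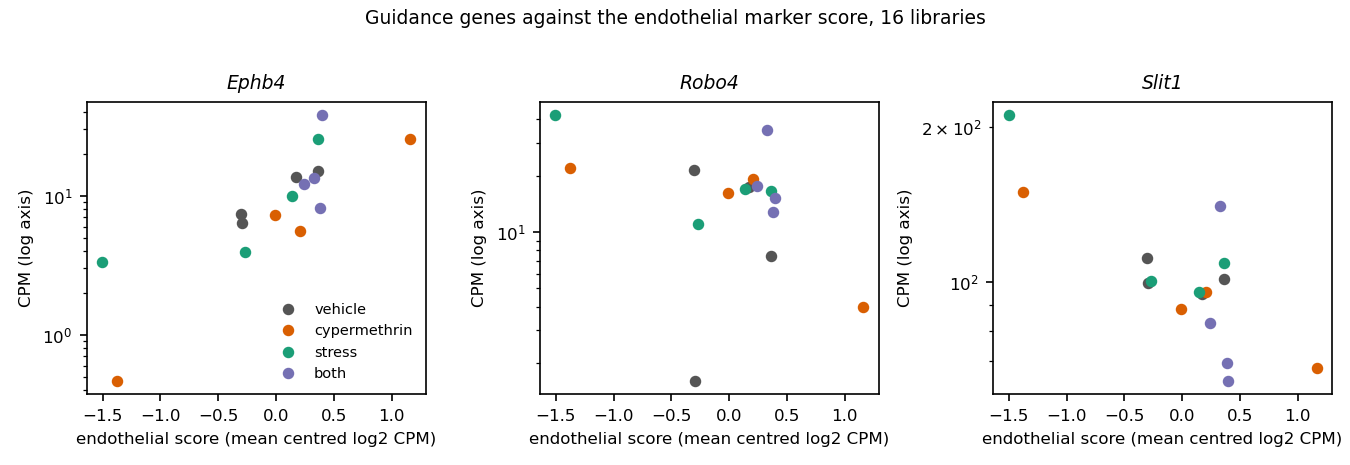
Levels of Ephb4, Robo4 and Slit1 in CPM on a log axis against the endothelial marker score (mean of centred log2 CPM of 12 markers), with 1 point per library coloured by group. Ephb4 is at 3.33 and 0.467 CPM at the 2 lowest scores and at 25.5 CPM at the highest, and Robo4 and Slit1 have their highest values, 42.3 and 211 CPM, at the lowest score.

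Sequences before the RefSeq starts of Ephb4 and Robo4 are shown because, of these vascular receptor genes, Ephb4 was called on the endothelial score and Robo4 was not. They are the 120 bases before the RefSeq start of each gene (GRCm38.p6, plus strand), chr5:137349989-137350108 for Ephb4 and chr9:37401852-37401971 for Robo4, and capitals mark GGAA or its reverse complement TTCC, the core letters of sites for ETS transcription factors, a family with known roles in endothelial genes.
Ephb4: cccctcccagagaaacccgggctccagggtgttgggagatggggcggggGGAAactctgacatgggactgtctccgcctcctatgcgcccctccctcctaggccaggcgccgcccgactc
Robo4: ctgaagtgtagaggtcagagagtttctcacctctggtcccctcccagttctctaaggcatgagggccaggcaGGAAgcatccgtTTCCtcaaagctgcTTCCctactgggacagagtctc
The Ephb4 window held 1 such match and the Robo4 window 3, and 73.4% of 32851 windows of the same length before RefSeq starts held at least 1 on either strand. In the mouse annotation used for positions here, Robo4 starts at 37401897, inside its window, and all 3 of its matches lie after that start. Ephb4 starts at 137350109, just past its window, so the match counts come from unlike regions. The longer CCGGAA, which contains GGAA, was in neither window and in 8.07% of all. Robo4 ends at 37415115 on the plus strand of chromosome 9, and Robo3 follows on the minus strand from 37415669.

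No member was called on the remaining scores. On the glutamatergic score, where 0.431% of all genes were called, Slit1 had the smallest p with a slope of 1.48 ± 0.44 (SE, adjusted p = 0.113), and 5 of 35 members had an unadjusted p under 0.05, 14.3% of them against 14.7% of all genes. On the pericyte and meningeal score, with 0.197% of all genes called, Ephb1 led with -1.001 ± 0.28 (adjusted p = 0.102), and 9 members had an unadjusted p under 0.05, 25.7% of them against 13.5% of all genes. In a fit without group means Ephb1 was called (slope -1.03, adjusted p = 0.0302). On the interneuron, radial glia and Cajal-Retzius scores 0% of all genes were called, and the leading members were Dcc (-0.48 ± 0.17, adjusted p = 0.253), Epha3 (-2.10 ± 0.67, adjusted p = 0.326) and Epha4 (-0.63 ± 0.22, adjusted p = 0.666). There 1, 6 and 2 of 35 members had an unadjusted p under 0.05, against 12.5%, 10.1% and 6.44% of all genes. Without the library labelled stress replicate 1, the slope of Dcc on the interneuron score was -0.63. That of Epha4 on the Cajal-Retzius score was then -0.51.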

How the data were processed

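The deposited values are raw read counts, 1 row per symbol and 1 column per library. The submitters' processing notes name STAR 2.5 and mm10. How reads were counted, on which annotation and with which strand setting is not given in the sources used here. Genes were kept by filterByExpr with a minimum count of 10, scaled by TMM and fitted in edgeR 4.0.16 (R 4.3.3) with 1 mean per group over all 16 libraries. The Benjamini-Hochberg adjustment ran over all genes tested, and SEs were derived from the F statistic. CPM were taken relative to the TMM-scaled total of the tested genes. DESeq2 1.42.0, limma 3.58.1 and other settings were alternatives. Replicate libraries all differed beyond counting noise (chi-square per gene of at least 5.92). Per comparison the 3 members with the smallest p were named, per pathway list the 1 gene. Members, lists and tests were chosen with earlier results of these data known. Positions and exon lengths come from GENCODE vM21 (mm10), which matched all 41 symbols. Intronic reads, if counted, would raise levels per kilobase of long genes. For both exposures, the leading gene of the ephrin pathway list is not reported here.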

Additional observations from a re-analysis of the deposited data

Results flagged for a closer look

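In 6 of 140 sets of 4 libraries (35 tested members in 4 groups), 1 library stood far from the other 3; chance gives about 1 in 20. In the library labelled stress replicate 1, Slit1 had 211 CPM where the next had 109, and Unc5d had 65.2 CPM where the next had 16.6. In replicate 1 of the group with both exposures, Ephb1 had 146 CPM where the next had 47.3, and Efna1 had 0 where the next had 2.87 CPM. Epha6 had 3.78 CPM in cypermethrin replicate 1 where the next had 0.266, and 3.54 CPM in stress replicate 4 where the next had 0.356.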

How the results depend on the processing

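No exposure comparison called a member under any alternative run: DESeq2, limma voom, other size factors, no filter, a minimum count of 30, the library code as a term, only the groups compared, each library left out, and fits within each code, the last chosen after seeing the data. Genes called over the whole table, 0 in each comparison, were 2, 45, 13, 9, 14 and 7 within the first code (cypermethrin alone, stress alone, both, interaction, averaged cypermethrin, averaged stress), and 2 by DESeq2 for averaged cypermethrin. With 1 library left out, members at an unadjusted p under 0.05 ran in the same order over 0 to 5, 0 to 4, 0 to 1, 1 to 3, 1 to 4 and 0 to 2. In the runs that recorded them, all 18 named differences kept their sign except that of Efna3 with stress alone. It was -0.426 within the second code, and the cause was not tested. Named differences were not recorded with only the groups compared, and Epha6 was not tested at a minimum count of 30. Within the first code the cypermethrin group had only replicate 1, so values there that use this group rest on that library. On the endothelial score 1 member was called, and 0 to 2 with 1 library left out. Without group means it was 2 there, Ephb4 and Slit1, and 1 on the pericyte and meningeal score. Counts over all genes on the 6 scores moved between 0 and 927. No paired analysis was possible because the labels number no replicates and so tie no sample to another. With 4 libraries per group the median SE of a member's log2 difference was 0.35 for the averages and 0.50 between single groups, where it ran from 0.16 for Dcc to over 1 for members with few counts.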
